A study of Mus musculus with 9 samples.

Results

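The Hox genes encode homeodomain transcription factors that lie in 4 clusters, A to D, on mouse chromosomes 6, 11, 15 and 2. All genes whose symbol is Hoxa, Hoxb, Hoxc or Hoxd followed by a number were taken from the annotation of the arrays. Of these, 37 had a probe set naming no other gene, each a single probe set, among 19858 genes measured in all. Hoxb8 was only on a probe set shared with Hoxb7 and was not used here. The members were thus picked by name and not by a measured value, though earlier results of these data were known.

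Within a cluster, the order of the genes along the chromosome follows the order of their domains along the body. Genes with low paralog numbers are used from the hindbrain backwards, and those with high numbers only in the rear of the trunk and in limbs and genitalia. Mesenchymal cells keep much of this positional code in culture, and fat depots of different body regions differ in the Hox genes they express. The proteins bind DNA together with the TALE homeodomain cofactors (Pbx, Meis and Pknox), retinoic acid and Cdx factors help to set the domains, and Polycomb and trithorax (MLL) complexes maintain them.

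Primary cells came from the interscapular brown fat, a heat-producing depot between the shoulder blades, of male C57BL/6 mice aged 5 weeks. Cells of a fraction enriched for precursors received insulin in rising doses and were collected at about day 9. There were 3 groups of 3 cultures: LPA (1-oleoyl lysophosphatidic acid, a signalling lipid) at 5 µM, HA155 (an inhibitor of autotaxin, the secreted enzyme that makes LPA) at 2.5 µM, and control, which received the vehicle DMSO alone. The compounds were given during differentiation by the study's design text, while the labels state 9 days in vitro, which leaves the exposure time unclear. The cultures are mixed primary populations rather than a line, and numbers of mice per culture are not given in the sources used here.

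Each culture gave 1 Affymetrix array, and values below are log2 of the deposited intensity, on which 1 unit is a doubling. The median intensity of an array was 71.1 to 72.8 with LPA, 70.7 to 71.2 with HA155 and 71.8 to 72.0 in control. Differences were tested with limma across 13335 genes, and "called" means a Benjamini-Hochberg adjusted p below 0.05. All 11 measured adipocyte markers averaged above 5.59, the level under which genes were left out of the test. Of 11 brown adipocyte markers 7 did so, among them Cox7a1, Cox8b and Ebf2, while Ucp1, Cidea, Dio2 and Elovl3 averaged below it over the 9 arrays. Cidea was above it in the HA155 arrays, at 6.53, 6.15 and 6.49. The 3 arrays a group limit the precision, and the median standard error of a Hox gene's log2 difference was 0.077.

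The clusters also hold microRNA genes, and their products are shown because those microRNAs act on Hox transcripts. In mouse, miR-196a represses Hoxb8 and Hoxc8, and the miR-10 genes lie beside the Hox4 genes. The mature sequences are from RefSeq (GRCm38.p6), 5′ to 3′, with the seed (bases 2 to 8) in capitals.
miR-10a-5p: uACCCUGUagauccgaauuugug
miR-10b-5p: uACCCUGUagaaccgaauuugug
miR-196a-5p: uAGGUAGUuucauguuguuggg
miR-196b-5p: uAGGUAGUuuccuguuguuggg
miR-615-3p: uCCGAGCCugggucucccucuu
Both miR-10 sequences share a seed and differ only by U12A, counted from the 5′ end with miR-10a first. Both miR-196 sequences share another seed and differ only by A12C, with miR-196a first, and miR-615 has a seed of its own. miR-10a is encoded at chr11:96317186-96317208 (+) in the B cluster and miR-10b at chr2:74726074-74726096 (+) in the D cluster. miR-196a comes from 2 genes, at chr11:96265187-96265208 (+) and chr15:102973365-102973386 (+), miR-196b from chr6:52230129-52230150 (-), and miR-615 from chr15:103014969-103014990 (+).

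Counted against an intensity level, all central Hox genes were on in the interscapular cultures and few posterior ones were, a pattern that depends on the level. A gene was counted as on where its mean reached 5.59, the 40th percentile of all probe sets (intensity 48.2), a level that 67.2% of all genes reached over the 9 arrays. By this count 23 of 37 Hox genes were on over all arrays, which is near that share. At a stricter level, the 60th percentile of all probe sets, 13 of 37 were on in every group. The same 23 were on in each of the LPA, HA155 and control groups. The count was 24 with LPA, 23 with HA155 and 24 in control, the difference being Hoxa3, whose mean was 5.64 with LPA, 5.44 with HA155 and 5.62 in control. In every single array 22 were on, Hoxa6 being the one that dipped below in HA155 array 4, at 5.55.

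Counted by position in the cluster, all 14 central genes (paralogs 4 to 8) were on, as were 5 of 7 anterior genes (paralogs 1 to 3), against 4 of 16 posterior genes (paralogs 9 to 13). The posterior genes that were on were Hoxb9, Hoxc9, Hoxd9 and Hoxd11, and 12 of the 16 posterior genes were on in no group. By cluster, 5 of 10 genes were on in A, 8 of 9 in B, 5 of 9 in C and 5 of 9 in D. These are counts against an intensity level that most genes reach, and the anterior share is near the 67.2% of all genes. The counts by position change with the level. By their means over 9 arrays, 14 Hox genes reached the 60th percentile of all probe sets. The anterior Hoxa2, Hoxb1 and Hoxd3 and the central Hoxa6, Hoxa7 and Hoxd4 were not among them. A low probe set value does not show that a transcript is absent, and a value above the level does not show that it is expressed.

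Among the anterior genes, which pattern the hindbrain, Hoxb1, Hoxb2, Hoxb3, Hoxa2 and Hoxd3 were on. Hoxb1 was at 6.64, 6.76 and 6.50 with LPA, 6.50, 6.64 and 6.64 with HA155 and 6.64 in all 3 controls. It held 1 and the same value in 6 of 9 arrays. Such ties understate a gene's spread: Hoxa7 and Hoxb4 shared a value in 5 arrays and Hoxd3 and Hoxb7 in 4. Over all 9 arrays Hoxa2 ran from 5.92 to 6.37, Hoxb2 from 6.75 to 6.96, Hoxb3 from 7.11 to 7.44 and Hoxd3 from 5.81 to 6.13. Hoxd1 was below the level, between 4.91 and 5.20.

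The central genes, which pattern the neck and chest region, were on in every group, and 13 of 14 in every array, the exception being Hoxa6. In the A cluster the means over 9 arrays were 7.52 for Hoxa4, 7.89 for Hoxa5 (needed for normal trunk and lung development), 5.87 for Hoxa6 and 6.50 for Hoxa7. In the B cluster they were 7.29 for Hoxb4, 7.02 for Hoxb5, 8.23 for Hoxb6 and 6.93 for Hoxb7. In the C cluster they were 7.40 for Hoxc4, 7.03 for Hoxc5, 7.44 for Hoxc6 and 7.85 for Hoxc8, and in the D cluster 6.66 for Hoxd4 and 7.42 for Hoxd8. Values of different probe sets are not on a common scale and give no order among genes. Hoxc8 belongs to the genes known in mouse to restrain brown adipocyte formation, and together with Hoxc9 it has been used as a marker of white depots. Here Hoxc8 lay between 7.64 and 8.04 and Hoxc9 between 6.35 and 6.69, so both were on in all 9 interscapular arrays.

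The posterior genes that were on had means of 6.93 for Hoxb9, 6.51 for Hoxc9, 6.48 for Hoxd9 and 5.80 for Hoxd11. Hoxc10, which restrains browning of subcutaneous fat in mouse, had a mean of 5.04 and ran from 4.70 to 5.27, below the level in all 9 arrays. The other posterior A genes had means of 5.28 for Hoxa9, 5.11 for Hoxa10, 5.10 for Hoxa11 and 5.15 for Hoxa13. Hoxb13 was at 5.42, Hoxc11 at 4.05, Hoxc12 at 5.07 and Hoxc13 at 5.37. In the D cluster Hoxd10 was at 5.40, Hoxd12 at 4.93 and Hoxd13 at 5.47. The members nearest to the level were Hoxa3 (5.56), Hoxd13 (5.47) and Hoxb13 (5.42) outside it, and Hoxd11 (5.80), Hoxa6 (5.87) and Hoxd3 (5.96) inside it. As a second gauge served 1166 olfactory and vomeronasal receptor genes, which fat is not expected to use. Their 95th percentile was 5.48, and 23 Hox genes exceeded it in every group. It lies so close to 5.59 that it is no independent check of the first count. Of those receptor genes 3.95% were above 5.59.

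**Figure D1:**
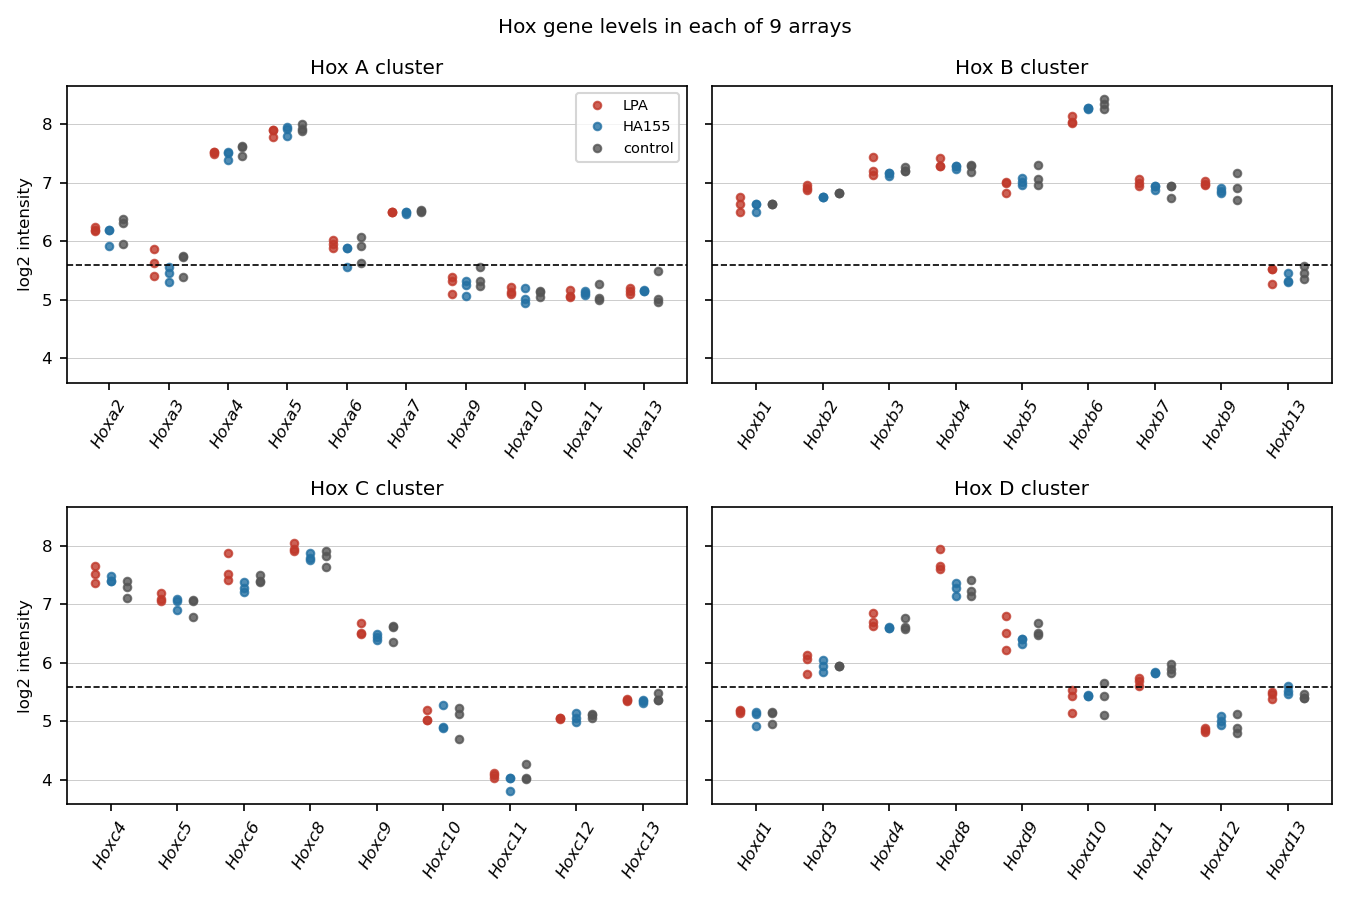
Log2 intensity (vertical axis) of the 37 Hox genes by cluster, with 1 point per array and the LPA, HA155 and control arrays side by side. The dashed line is the level of 5.59: central genes lie above it in all arrays but 1 of Hoxa6, and most posterior genes lie below it in all 3 groups.

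With LPA against control, 3 of the 23 Hox genes tested were called. Hoxd8 was higher with LPA, while Hoxb6 and Hoxd11 were lower, each by less than 0.5 on the log2 scale. Of all genes tested, 23.0% were called in this comparison, 12.2% as higher and 10.8% as lower, beside 1 higher and 2 lower of 23 Hox genes. At an unadjusted p below 0.05 there were 5 Hox genes and 4580 of all genes. The median difference was 0.061 over the Hox genes and 0.0052 over all genes tested.

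Hoxd8 belongs to the central D genes and is used in the trunk and proximal limbs. It was at 7.60, 7.93 and 7.65 in the LPA arrays, 7.14, 7.27 and 7.37 in the HA155 arrays and 7.14, 7.23 and 7.41 in the control arrays. All 3 LPA arrays were above all 6 others, with LPA array 8 the highest. The group means were 7.73 ± 0.18 with LPA, 7.26 ± 0.11 with HA155 and 7.26 ± 0.14 in control (SD, n = 3 each). The log2 difference between LPA and control was 0.47 (SE 0.10, limma adjusted p = 0.00644), a 1.38-fold higher value.

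Hoxb6, a central B gene known for its expression in trunk and limb mesoderm and in blood progenitors, moved the other way. It was at 8.04, 8.02 and 8.14 with LPA, 8.28, 8.26 and 8.27 with HA155 and 8.35, 8.42 and 8.26 in control. The LPA arrays were below all others, and the HA155 arrays reached into the control range at its lower end. The means were 8.07 ± 0.065 with LPA, 8.27 ± 0.0082 with HA155 and 8.34 ± 0.080 in control (SD, n = 3 each). Hoxb6 fell by 0.28 on the log2 scale with LPA against control (SE 0.061, limma adjusted p = 0.00700).

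Hoxd11, a posterior D gene that shapes forearm, kidney and lower spine, was on but near the level of 5.59. It was at 5.74, 5.61 and 5.68 with LPA, 5.83, 5.84 and 5.83 with HA155 and 5.83, 5.98 and 5.90 in control. The LPA arrays were below all others, and the lowest of them lay just above that level. Control array 1 and HA155 arrays 4 and 6 held the same value, a tie that understates the spread. Hoxd11 fell by 0.23 with LPA against control (SE 0.060, limma adjusted p = 0.0194). This call was lost with only the LPA and control arrays in the fit (adjusted p = 0.0651), without control array 2 (0.0846) and without control array 3 (0.0512). Hoxd11 also overlaps Hoxd10 in RefSeq, so signal of the pair may be shared.

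**Figure D2:**
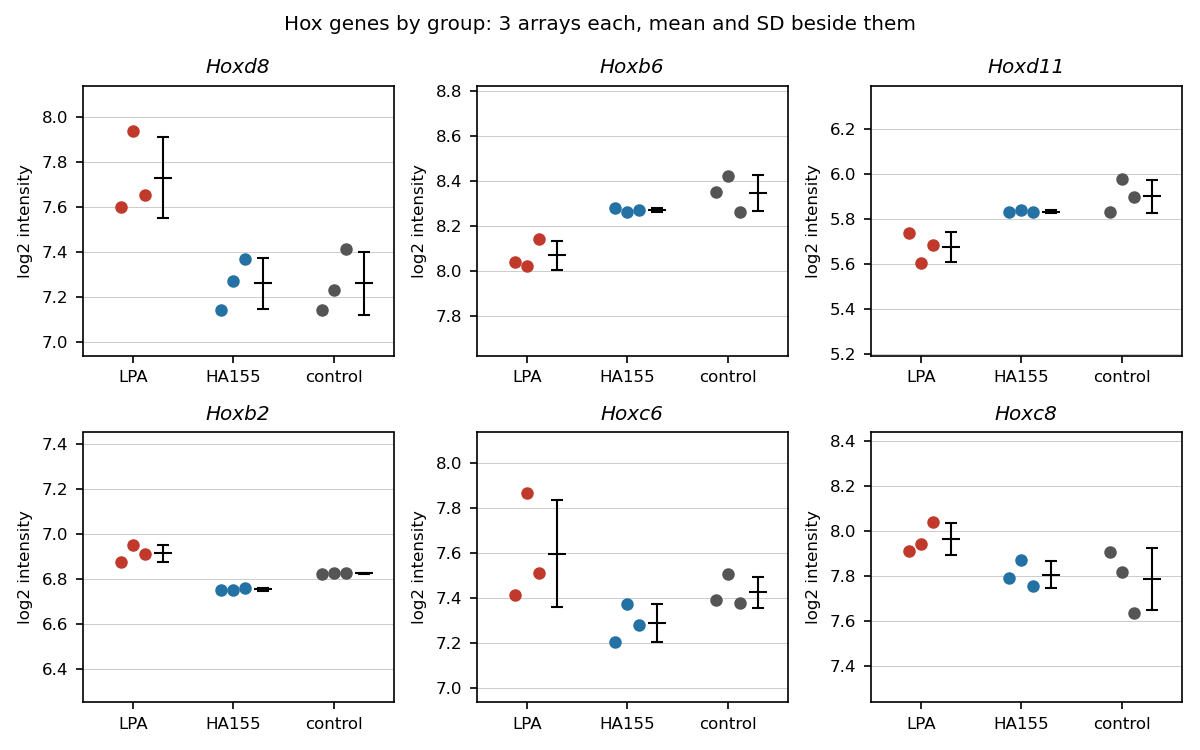
Log2 intensity of 6 Hox genes in the LPA, HA155 and control arrays (3 points each), with the mean and SD as a bar beside each group; each panel spans 1.2 log2 units. Hoxd8 is higher and Hoxb6 and Hoxd11 are lower in all 3 LPA arrays than in all 6 others, and the Hoxc6 mean with LPA is carried up by 1 array.

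The promoters of the D cluster genes that were called are shown for their base composition, each from 250 bases before to 50 after the RefSeq start, with the homeodomain core TAAT (ATTA on the other strand) in capitals.
Hoxd8, chr2:74704365-74704664 (+): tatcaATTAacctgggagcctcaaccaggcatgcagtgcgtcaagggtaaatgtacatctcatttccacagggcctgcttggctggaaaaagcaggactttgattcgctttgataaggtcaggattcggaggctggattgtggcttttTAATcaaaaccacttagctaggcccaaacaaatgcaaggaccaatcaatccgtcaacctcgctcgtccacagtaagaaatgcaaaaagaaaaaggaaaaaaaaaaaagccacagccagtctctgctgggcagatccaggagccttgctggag
Hoxd11, chr2:74679308-74679607 (+): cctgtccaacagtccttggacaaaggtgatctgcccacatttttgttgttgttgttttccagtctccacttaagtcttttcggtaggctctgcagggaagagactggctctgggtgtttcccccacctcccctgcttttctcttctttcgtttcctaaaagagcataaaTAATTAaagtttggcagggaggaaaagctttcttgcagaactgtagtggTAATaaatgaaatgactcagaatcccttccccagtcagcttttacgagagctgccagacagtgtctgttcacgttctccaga
Both are GRCm38.p6 sequence. The Hoxd8 window has a GC content of 46.7% and 6 CpG pairs, and the Hoxd11 window 45.7% and 4 CpG pairs. Promoters of 22 Hox genes had a match in the table, with a median GC content of 58%, against 52.7% over 32851 promoters. The TAAT core occurs at 2 places in the Hoxd8 window and at 3 in the Hoxd11 window, where a TAATTA counts as 2 overlapping matches. It is in at least 1 promoter of 17 of the 22 Hox genes. Of all promoters, counted singly rather than by gene, 58.0% hold it, with a median of 1 place. On either strand neither window holds TGATNNAT (a joint Pbx and Hox site, in 8.85% of all promoters), TGACAG (Meis, 19.2%), TATAAA (13.6%), a CArG box (1.63%) or the direct repeat of AGGTCA with a spacer of 5 bases (0.00913%). These matches are letters in a window and say nothing of binding in these cells.

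The other 20 tested Hox genes were not called with LPA. The nearest was Hoxc4, at 7.51, 7.66 and 7.36 with LPA, 7.49, 7.40 and 7.40 with HA155 and 7.40, 7.29 and 7.11 in control. Its difference from control was 0.25 (SE 0.091, limma adjusted p = 0.0764), and the LPA and control groups overlapped. It passed without control array 1 (adjusted p = 0.0414) and without LPA array 9 (0.0306). Hoxc8 was at 7.91, 7.94 and 8.04 with LPA, 7.79, 7.87 and 7.76 with HA155 and 7.91, 7.82 and 7.64 in control, so its lowest LPA array and highest control array nearly touched. Its difference from control was 0.18 (limma adjusted p = 0.125), with a 95% interval from 0.0099 to 0.35.

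All 5 tested C genes had positive LPA estimates, from 0.031 for Hoxc9 to 0.25 for Hoxc4, with a median of 0.17, yet none passed. Medians were -0.014 over 5 A genes, 0.045 over 8 B genes and 0.062 over 5 D genes. By position the medians were 0.029 over 5 anterior, 0.080 over 14 central and -0.0080 over 4 posterior genes. Among the genes not called, the 95% intervals reached down to -0.36 (Hoxb5) and up to 0.45 (Hoxc4). For those genes a missed threshold does not show that they were unaltered. LPA and control arrays did not overlap for 6 of the 23, as for 33.1% of all genes tested.

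HA155 changed no Hox gene past the threshold. In this comparison 0 of 23 were called by limma and 0 had an unadjusted p below 0.05, while 1.03% of all genes were called (0.607% higher, 0.427% lower) and 1082 had such an unadjusted p. The lowest adjusted p was 0.757, for Hoxc4, whose difference from control was 0.17 (SE 0.091). For Hoxd8 the difference was -0.0013 (95% interval -0.23 to 0.22), and for Hoxb6 it was -0.074 (-0.21 to 0.061).

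Most HA155 estimates were slightly below 0, at 18 of 23, against 49.0% of all genes tested, with a median of -0.066. Hoxd9, a posterior gene active in limb buds, had the lowest estimate. It was at 6.41, 6.40 and 6.32 with HA155, against 6.48, 6.51 and 6.67 in control, a difference of -0.18 (SE 0.12, limma adjusted p = 0.854). HA155 arrays lay below all controls for 5 genes (Hoxa7, Hoxb2, Hoxb3, Hoxc6 and Hoxd9) and above them for 0, where 16.8% of all genes had groups that did not overlap. For Hoxa7 and Hoxc6 the groups nearly touched. The highest HA155 array and lowest control were at 6.5013 and 6.5018 for Hoxa7, and at 7.3755 and 7.3796 for Hoxc6. Over all 23 genes the intervals ran from -0.44 (Hoxd9) to 0.37 (Hoxc4). The LPA and HA155 comparisons share their controls, so a low or high control array moves both. Control array 3 was farthest from its group's median for 11 of the 23 genes, as was HA155 array 5 in its group. Control array 3 was the lowest control for 11 genes and the highest for 6, and its part in these estimates was not tested.

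When LPA was set against HA155, where control arrays enter only through the spread shared by all groups, 4 Hox genes were called, 3 higher (Hoxd8, Hoxc6 and Hoxb2) and 1 lower (Hoxb6). Of all genes 26.1% were called here, 13.7% as higher and 12.4% as lower. Hoxd8 was higher by 0.47 (SE 0.10, limma adjusted p = 0.00544), and Hoxb6 fell by 0.20 with LPA against HA155 (SE 0.061, adjusted p = 0.0309). Hoxd11 fell short of the threshold, with a difference of -0.16 (adjusted p = 0.0845).

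Hoxb2, an anterior gene of hindbrain and neck, was at 6.88, 6.96 and 6.92 with LPA, 6.75, 6.75 and 6.76 with HA155 and 6.83, 6.83 and 6.83 in control. The 3 groups were fully apart, LPA highest and HA155 lowest, over a narrow range. Its difference between LPA and HA155 was 0.16 (SE 0.052, limma adjusted p = 0.0416). Hoxc6, a central gene of the chest region, was at 7.41, 7.87 and 7.51 with LPA, 7.21, 7.38 and 7.28 with HA155 and 7.39, 7.51 and 7.38 in control. The difference between LPA and HA155 was 0.31 (SE 0.10, limma adjusted p = 0.04997), and without LPA array 8, its highest, it was 0.18 (adjusted p = 0.104). Each of these calls was lost in 14 of 18 alternative settings, and that of Hoxb6 in 6.

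LPA and HA155 arrays did not overlap for 9 of the 23 genes (7 higher, 2 lower with LPA), as for 38.7% of all genes. Tested over the 3 groups at once with limma's moderated F, 24.5% of all genes passed. Among Hox genes 3 passed: Hoxd8 (adjusted p = 0.00677), Hoxb6 (0.0144) and Hoxd11 (0.0419). The 14 Hox genes below the level were fitted together with all 19858 genes, and 0 of them were called by limma in any comparison, nor did any have an unadjusted p below 0.05. In that fit 2723, 3156 and 86 of all genes were called for LPA against control, LPA against HA155 and HA155 against control.

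**Figure D3:**
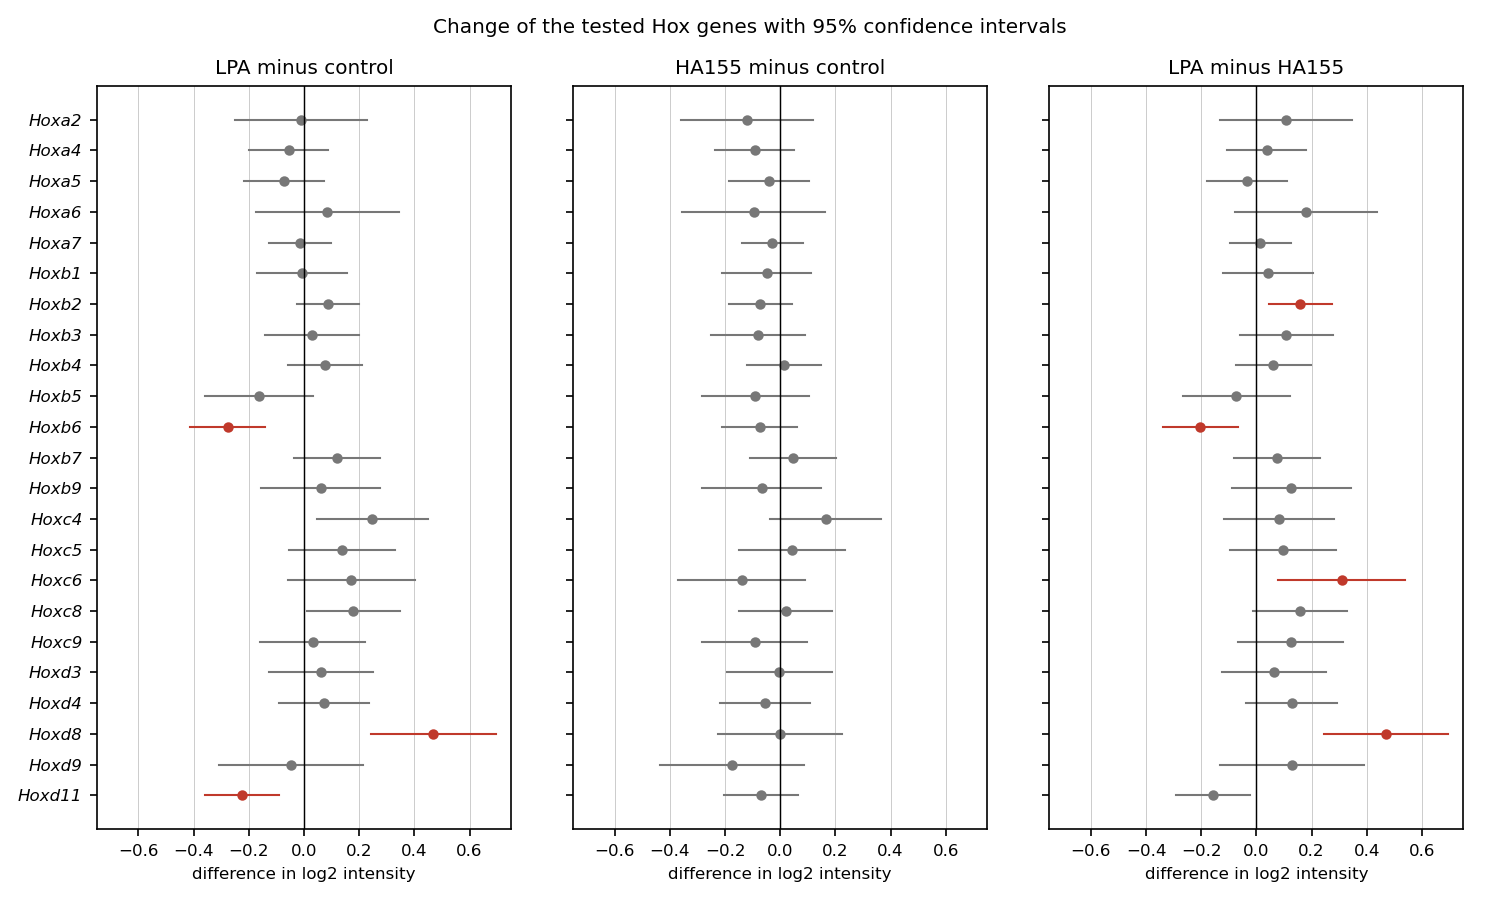
Difference in log2 intensity (horizontal axis) of the 23 tested Hox genes with 95% confidence intervals for LPA minus control, HA155 minus control and LPA minus HA155; red marks an adjusted p below 0.05. Hoxd8 stands at 0.47 against both other groups and at -0.0013 for HA155 minus control.

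The TALE proteins, which raise the DNA binding specificity of Hox proteins, were all 8 above the level, and all 8 had estimates above 0 with LPA, with a median of 0.24, while 48.6% of all genes tested were below 0. Of these 2 were called as higher and 0 as lower, a share near the 23.0% of all genes called. Pbx3 was at 6.97, 7.40 and 7.12 with LPA, against 6.77, 6.80 and 6.68 in control, a difference of 0.41 (SE 0.098, limma adjusted p = 0.0105). Pknox2 was at 6.86, 7.35 and 6.99 with LPA, against 6.77, 6.62 and 6.64 in control, a difference of 0.39 (adjusted p = 0.0228). The lowest LPA array was above the highest control array for both genes. The call of Pknox2 was lost with only both groups in the fit and without control array 2 or 3 (highest adjusted p = 0.0846). With HA155, 0 of 8 were called and 0 had an unadjusted p below 0.05. Meis2 joined Pbx3 and Pknox2 when LPA was set against HA155 (0.31, limma adjusted p = 0.0350). That call of Meis2 was lost in 8 of 18 alternative settings (highest adjusted p = 0.135).

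Regulators upstream of the Hox domains were higher with LPA in 5 of 14 tested genes and lower in 0, beside 12.2% and 10.8% of all genes. Aldh1a2, which makes retinoic acid in the embryo's trunk, was at 7.46, 7.47 and 7.60 with LPA, 7.03, 7.48 and 7.22 with HA155 and 6.86, 6.61 and 6.70 in control. Its difference from control was 0.79 with LPA (SE 0.11, limma adjusted p = 3.08e-04) and 0.52 with HA155 (adjusted p = 0.0520), so it stood above control in all 6 treated arrays but passed only with LPA. Against HA155 the LPA difference was 0.27 (adjusted p = 0.0948). Gdf11, a TGF-beta family ligand that helps to switch on posterior Hox genes in the embryo, was higher with LPA by 0.39 (SE 0.074, adjusted p = 0.00265). Greb1 (0.36), Aldh1a3 (0.33), another retinaldehyde dehydrogenase, and the retinoic acid receptor Rarg (0.26) were also called. The calls of Aldh1a3 and Rarg were lost in 11 and 10 of 18 alternative settings. With HA155, 0 of 14 were called by limma and 1, Aldh1a2, had an unadjusted p below 0.05. LPA against HA155 gave 3 higher and 1 lower, beside 13.7% and 12.4% of all genes.

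Of 26 Polycomb and MLL regulators, 0 were higher and 2 lower with LPA, beside 12.2% and 10.8% of all genes. Jarid2, a partner of Polycomb complex PRC2, fell by 0.32 (SE 0.076, limma adjusted p = 0.0114) and Dot1l, a histone methyltransferase, fell by 0.37 (adjusted p = 0.0429). Dot1l lost its call in 9 of 18 alternative settings. The core PRC2 genes gave 0.015 for Ezh2 (adjusted p = 0.875) and -0.11 for Suz12 (0.252), and Kmt2a, the MLL1 gene, gave 0.30 (0.142). With HA155 0 of 26 were called and 0 had an unadjusted p below 0.05. LPA against HA155 gave 2 higher and 1 lower of 26, beside 13.7% and 12.4% of all genes.

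Of 16 noncoding genes in the clusters 10 were measured and 3 lay above the level. The probe sets for the genes of the microRNAs printed above were below it for Mir10a (3.40 over all arrays), Mir10b (3.50), Mir196a-1 (4.33), Mir196a-2 (3.79) and Mir196b (5.16). Mir615, which lies within the C cluster, was at 7.66 and gave -0.025 with LPA (limma adjusted p = 0.918). These arrays of total RNA do not measure the mature forms as such. Hoxaas2, an antisense transcript of the A cluster, was at 5.94, 6.25 and 6.07 with LPA, 5.86, 5.68 and 5.82 with HA155 and 5.76, 5.70 and 5.76 in control. It was higher with LPA against control by 0.35 (SE 0.081, adjusted p = 0.00962) and against HA155 by 0.30 (adjusted p = 0.0188), and HA155 gave 0 calls of 3.

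Other transcription factors of position and mesoderm (homeobox, T-box, forkhead, bHLH, zinc finger and nuclear receptor genes) gave 10 higher and 1 lower of 33 with LPA. Of all genes 12.2% were higher and 10.8% lower. The median over the list was 0.14. Tbx18 was at 8.98, 8.75 and 8.85 with LPA, against 8.43, 8.22 and 8.24 in control, a difference of 0.57 (SE 0.081, limma adjusted p = 4.12e-04). Meox2, a somite homeobox gene, gave 0.50 (adjusted p = 0.00151), and the limb and craniofacial mesenchyme genes Prrx1 and Prrx2 gave 0.38 and 0.45. Twist1 gave 0.32 and Twist2 0.25. Twist2 was the 1 gene of this list called with HA155, where it was lower, with a difference of -0.33 (SE 0.063, adjusted p = 0.0380), a call lost in 9 of 18 alternative settings. LPA against HA155 gave 11 higher and 0 lower, beside 13.7% and 12.4% of all genes.

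Zic1 and Lhx8, used in mouse as markers of the interscapular brown depot against white ones, are named for that role after their values were seen. Zic1 was at 7.13, 7.62 and 7.54 with LPA, 7.09, 6.87 and 6.95 with HA155 and 6.91, 7.01 and 7.09 in control. All LPA arrays were above all others, and the difference from control was 0.43 (SE 0.12, limma adjusted p = 0.0197), which was lost in 5 of 18 alternative settings. Lhx8 was on, at a mean of 8.14, and gave 0.14 with LPA (adjusted p = 0.262) and -0.086 with HA155 (0.926).

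The protein-coding neighbours of the clusters, taken by position from the RefSeq table, gave 1 higher and 6 lower of 17 tested with LPA. Of all genes 12.2% were higher and 10.8% lower. The median over the neighbours was -0.084. Hibadh, a mitochondrial enzyme of valine breakdown next to the A cluster, was at 10.7, 10.4 and 10.7 with LPA, 11.5, 11.5 and 11.5 with HA155 and 11.3, 11.4 and 11.3 in control, and fell by 0.70 with LPA (SE 0.084, limma adjusted p = 1.25e-04). Atp5g1 and Atp5g3, which encode the c subunit of ATP synthase beside the B and D clusters, fell by 0.52 and 0.47, and Mtx2, a mitochondrial import gene beside the D cluster, fell by 0.30. Snx10 fell by 0.32 with LPA (adjusted p = 0.0118) and was the 1 neighbour called with HA155, higher by 0.38 (adjusted p = 0.0485), a call lost in 9 of 18 alternative settings. LPA against HA155 again gave 1 higher and 6 lower, beside 13.7% and 12.4% of all genes.

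**Figure D4:**
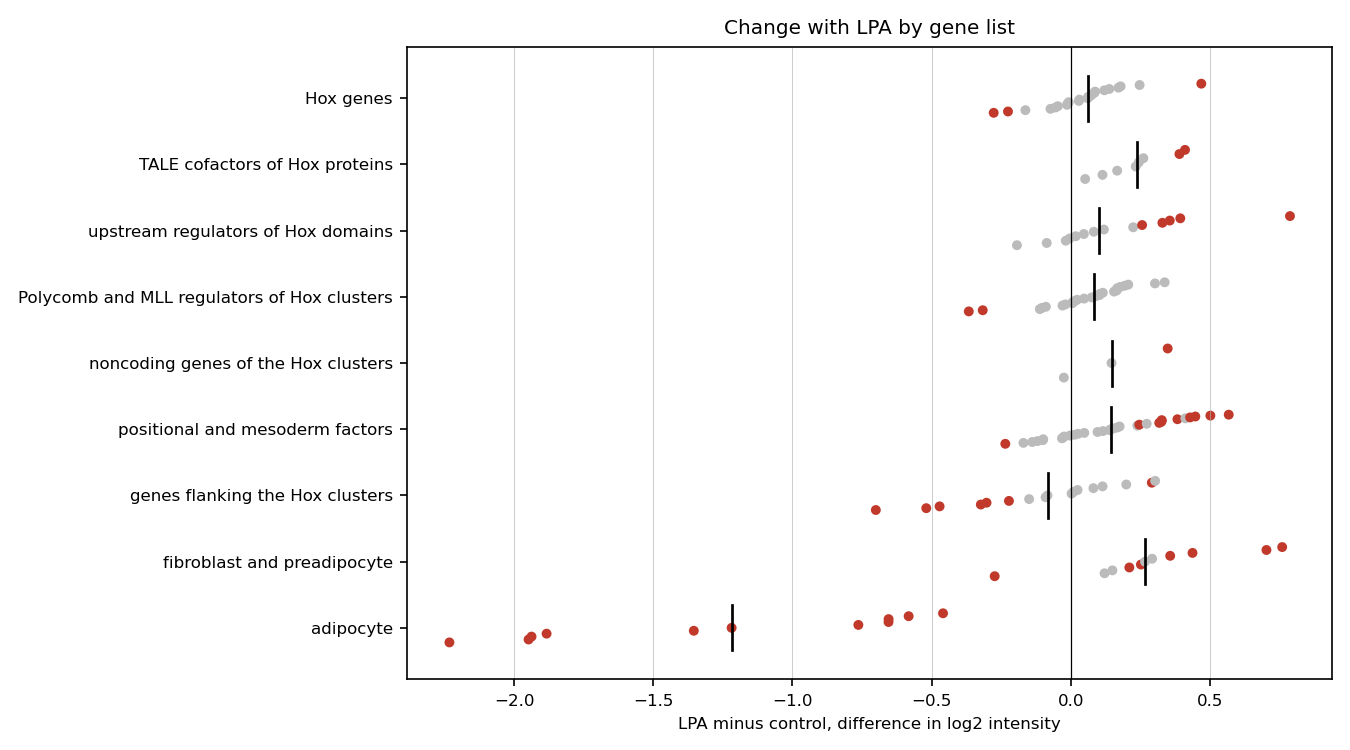
LPA minus control in log2 intensity (horizontal axis) for each tested gene of the Hox genes and 8 other lists, with red points for an adjusted p below 0.05 and a black line at the list's median. The Hox genes lie between -0.28 and 0.47, while all 11 adipocyte markers lie between -2.23 and -0.46.

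Markers of cell types in the cultures moved with LPA beside these results. Of all genes tested 12.2% were called higher and 10.8% lower with LPA, and 0.607% and 0.427% with HA155. All 11 measured adipocyte markers were lower (median -1.22), with a summed intensity of 19899 to 21639 with LPA, 38766 to 41090 with HA155 and 37287 to 38520 in control. Of 11 fibroblast and preadipocyte markers 6 were higher and 1 lower, and their summed intensity was 41936 to 44210 with LPA, 30890 to 33081 with HA155 and 34049 to 35683 in control. Of 11 skeletal muscle genes 7 were higher and 0 lower, with sums of 1920 to 2240 with LPA, 1437 to 1567 with HA155 and 1406 to 1478 in control. The muscle-defining Myod1 and Myog gave -0.027 and 0.019 (adjusted p = 0.881 and 0.864), and Myf5 was below the level. Of 7 brown adipocyte markers 1 was higher and 3 lower with LPA (median -0.23), and the summed intensity of the list was 1365 to 1559 with LPA, 2838 to 2982 with HA155 and 1998 to 2093 in control. Endothelial genes gave 1 higher of 3, chondrocyte and osteoblast genes 1 higher of 3, and macrophage (4), Schwann cell (3) and mesothelial (3) genes gave 0 calls. With HA155, the adipocyte list gave 2 higher of 11, the brown list 2 higher of 7, the fibroblast list 1 lower of 11 and the muscle list 1 higher of 11. Their part in the Hox results was not tested. In such bulk samples, fewer cells of a type and less RNA per cell cannot be told apart.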

How the data were processed

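Total RNA of 9 cultures was biotin-labelled and hybridised by the standard Affymetrix protocol, per the labels' protocols. The authors deposited 1 intensity per probe set and array, by RMA according to the submitters' processing notes (background correction, quantile normalization, probe summary). The linear scale was read from the values, and no version of RMA was found in the sources used. Quantile normalization removes a global shift if there was one. No offset was added before log2. Of 35432 probe sets 21706 named 1 gene, 1605 several and 12121 none. Of several for a gene the brightest was used. Genes with a mean below the 40th percentile were left out of the test, which kept 13335 of 19858. Tests were limma 3.58.1 in R 4.3.3 with 3 groups, 6 residual degrees of freedom, two-sided, with Benjamini-Hochberg adjustment over all genes at 0.05, and were tested on simulated data. With 3 against 3 an exact test cannot go below p = 0.1. All Hox genes are named. From other lists the named genes are called ones, at most 6 per list by p, and otherwise members named for their role, chosen after their values were seen. The members and lists were chosen with earlier results of these data known. No labels name batches, so it is not known how batches lie across the groups, and an effect of batch could not be separated. Spread here is that between the 3 cultures of a group. Names and sequences are from RefSeq (GRCm38.p6), and no coordinates of array probes were used.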

Additional observations from a re-analysis of the deposited data

How the results depend on the processing

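No paired analysis was possible because the subject numbers differ between the groups. With LPA against control, Hoxd8 (difference 0.37 to 0.54) and Hoxb6 (-0.32 to -0.24) were called in all 18 alternatives, and HA155 against control gave 0 Hox calls in all of them. With LPA against HA155 the 4 Hox calls became 1 with no filter, and 2 with arrays centred on their median, with array weights, with the trend and robust eBayes and with only the 2 groups compared. Leaving out 1 array gave 1 to 3: 1 without HA155 array 4, 5 or 6 or LPA array 8, 2 without any control array or LPA array 9, and 3 without LPA array 7. With the 60th percentile as the level, 13 of 37 Hox genes rather than 23 were on in every group. Over the companion lists together, the 21 calls of LPA against control became 13 with only the 2 groups compared and were 13 to 24 with 1 array left out, 13 without control array 2 or 3. The 22 of LPA against HA155 were 13 to 21, lowest without an HA155 array. The 1 of HA155 against control became 0 with no filter and 2 with the 60th percentile, the mean of probe sets, repeated quantile normalization, array weights, the trend or the pseudocount of 16, and was 0 to 1 with 1 array left out. Among neighbours its 1 call became 0 with no filter or centred arrays and 2 with array weights, and was 0 to 1 with 1 array left out. The cause was not tested. No called value changed sign. Values near 5.59 are close to background, which limits Hoxd11, Hoxa6, Hoxa3 and the noncoding Hoxaas2. Overlapping gene pairs (Hoxa3 with Hoxa4 to Hoxa6, Hoxb3 with Hoxb4, Hoxd3 with Hoxd4, Hoxd10 with Hoxd11) may share signal.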
